A study of Danio rerio with 6 samples.

Results

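CTCF peaks on unplaced scaffolds were taken as every listed peak whose sequence is neither 1 of chromosomes 1 to 25 nor the mitochondrial chromosome of the zebrafish GRCz10 (danRer10) assembly. There were 3449 such peaks among 162429 peaks in 6 lists, on 597 scaffolds, against 158975 peaks on chromosomes 1 to 25. The 5 mitochondrial peaks were left out. Scaffolds are named here without the chrUn_ prefix of the files (KN149692v1 and so on), and positions count from 1.

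CTCF is a zinc-finger protein that binds DNA at a long, conserved motif, where it can halt cohesin and so anchor chromatin loops and the boundaries of topologically associating domains. It is bound at many of the same places in different tissues. Unplaced scaffolds are assembled stretches of the genome that could not be assigned to a chromosome, usually short pieces, and genome-wide summaries commonly leave them aside.

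CTCF binding was measured by ChIPmentation (chromatin immunoprecipitation with Tn5 tagging of the captured DNA) in pools of whole embryos. The label of WT 24 hpf replicate 1 names the CTCF antibody, and for the other 5 libraries the target was taken from the study's description. The groups were ctcf-/- at 48 h post fertilization (hpf), wild type (WT) at 48 hpf and WT at 24 hpf, with 2 libraries each. The ctcf-/- embryos are zygotic knockouts from a line with a CRISPR-Cas9 deletion in ctcf that brings in an early stop codon, in AB/Tübingen fish, and they receive CTCF from the mother, so that early development took place with the protein. In pooled embryos, fewer bound cells and less binding per cell cannot be told apart. The comparisons ask where CTCF peaks remained in the mutant (ctcf-/- against WT at 48 hpf) and how binding differed between stages (48 against 24 hpf).

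The lists differed in length and depth. The ctcf-/- lists held 2717 and 1706 peaks, the WT 48 hpf lists 31014 and 33130, and the WT 24 hpf lists 67512 and 26350. The genome background, which is the lowest background level in a list and stands for the depth of its library, was 8.5 and at most 4.00 tags per 10 kb in ctcf-/-, against 19.8 and 17.9 in WT at 48 hpf and 44.0 and 12.4 at 24 hpf. WT 24 hpf replicate 1 stood apart as the deepest library with the longest list, and 144 of the 597 scaffolds had a peak in that list only. Values at 24 hpf are therefore given for each replicate. Peaks of both replicates that overlapped by at least 1 bp were combined into sites. On scaffolds this gave 52 ctcf-/- sites of 844 in all (6.16%), 466 WT 48 hpf sites of 23959 (1.94%) and 416 WT 24 hpf sites of 22498 (1.85%).

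Unplaced scaffolds held a larger share of the ctcf-/- peaks than of the WT peaks. In ctcf-/- embryos 140 of 2717 peaks (5.15%, 95% Wilson interval 4.38 to 6.05) and 79 of 1706 peaks (4.63%, 3.73 to 5.73) were on scaffolds. In WT embryos at 48 hpf the counts were 601 (1.94%, 1.79 to 2.10) and 651 (1.96%, 1.82 to 2.12). At 24 hpf they were 1457 (2.16%, 2.05 to 2.27) and 521 (1.98%, 1.82 to 2.15). Both ctcf-/- libraries lay above the 4 WT libraries, which stayed within a narrow range. This did not hold when peaks less than 30 kb apart were counted once. The share was then 4.33% in WT 24 hpf replicate 1, above the 3.93% and 3.64% of ctcf-/-. The other WT libraries lay at 2.72% to 2.79% in that setting. Here and elsewhere the intervals cover counting error only.

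**Figure D1:**
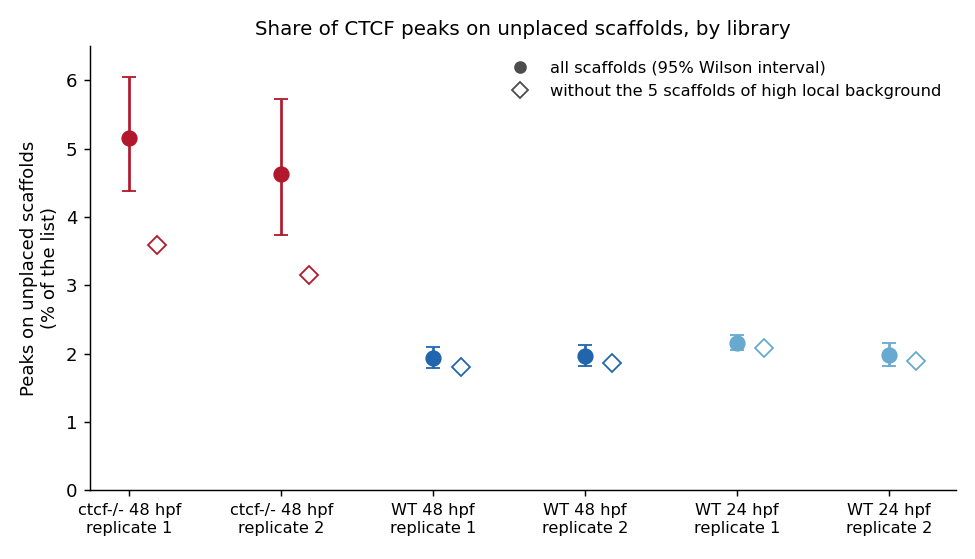
Share of each peak list that lies on unplaced scaffolds, in percent of the listed peaks, for the 6 libraries. Filled points are all scaffolds with 95% Wilson intervals, and open diamonds leave out 5 scaffolds of high local background. The ctcf-/- libraries (5.15% and 4.63%) sit above the WT libraries (1.94% to 2.16%), also without those scaffolds (3.59% and 3.15%, against 1.80% to 2.09%).

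The mean share was 4.89% ± 0.369 in ctcf-/- and 1.95% ± 0.0192 in WT embryos at 48 hpf (SD, n = 2 each), a difference of 2.94 percentage points and a ratio of 2.51. The exact permutation test over libraries (two-sided) gave p = 0.333, which is the smallest p that 2 against 2 libraries allow, so no difference between these groups could pass a threshold of 0.05. The same ratio, computed for each chromosome, lay between 0.806 on chromosome 18 and 1.46 on chromosome 4 with a median of 0.954, and 0 of 25 chromosomes reached the ratio of the scaffolds. Between the stages the mean share was 1.95% ± 0.0192 at 48 hpf and 2.07% ± 0.128 at 24 hpf (SD, n = 2 each), a difference of -0.116 percentage points (exact permutation p = 0.333), which is less than the SD of the 24 hpf libraries. The labels call the libraries replicates without naming separate clutches, so these p-values measure only the spread between libraries.

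Few scaffolds held many peaks. Over the 6 lists a scaffold with a peak had a median of 4, and 129 scaffolds had 1. Peaks in all 6 lists were found on 32 scaffolds, and peaks in at least 1 ctcf-/- list on 109. WT sites were spread thinly: the 466 sites at 48 hpf fell on 292 scaffolds, 195 of which had 1 site, and the 416 sites at 24 hpf fell on 283 scaffolds. The 52 ctcf-/- sites were on 29 scaffolds.

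KN149692v1 and KN149693v1 held the most peaks, 70 and 69. KN149692v1 had 15 and 7 peaks in the ctcf-/- lists, 15 and 11 in the WT 48 hpf lists, and 17 and 5 in the WT 24 hpf lists. KN149693v1 had 14 and 8 peaks in ctcf-/-, 15 and 10 in WT at 48 hpf, and 17 and 5 at 24 hpf. On both scaffolds the ctcf-/- lists thus held about as many peaks as the WT lists, although the ctcf-/- lists as a whole were far shorter. KN150127v1 (36 peaks) had more peaks in ctcf-/- (9 and 4) than in WT at 48 hpf (5 and 5).

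The other scaffolds among the 10 with most peaks were KN150170v1 (31 peaks), KN150529v1 (29), KN150411v1 and KN150435v1 (26 each), KN149681v1 and KN150460v1 (24 each) and KN149968v1 (23). KN150170v1 and KN150529v1 both had 2 and 3 ctcf-/- peaks, against 6 and 6 peaks on KN150170v1 and 4 and 5 peaks on KN150529v1 in WT at 48 hpf. KN150411v1 had 3 and 3 ctcf-/- peaks, against 6 and 5 in WT at 48 hpf. The remaining scaffolds of this group had at most 1 ctcf-/- peak in a list, so the 10 fell into ones with a ctcf-/- site and ones without. The ranking counts the ctcf-/- peaks too, so it is not a ranking by WT peaks.

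**Figure D2:**
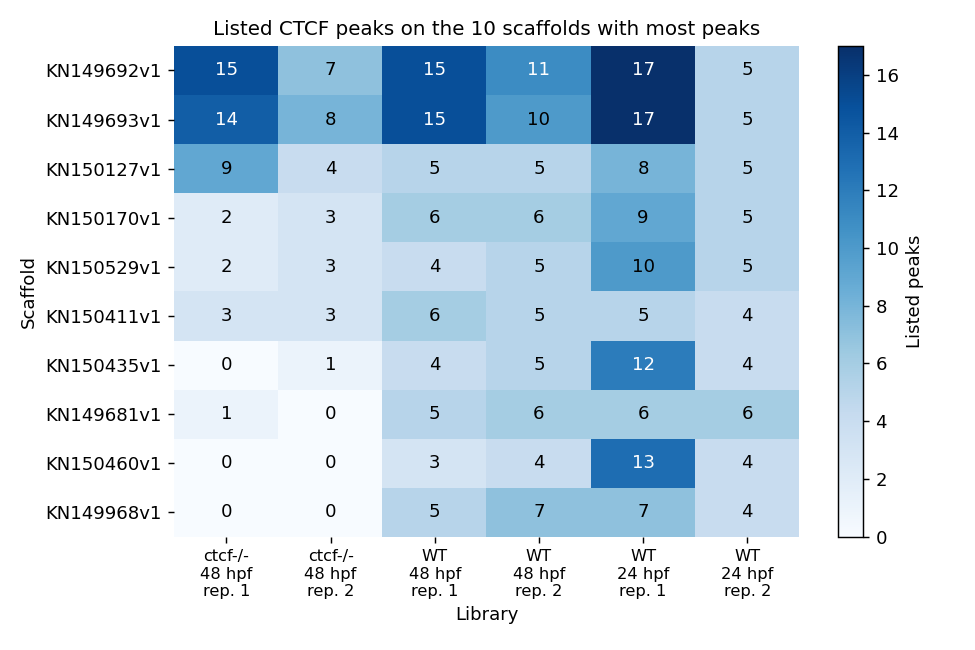
Number of listed peaks in each of the 6 libraries (columns) on the 10 scaffolds with most peaks over all lists (rows, most at the top). Darker cells hold more peaks. KN149692v1 and KN149693v1 hold 15 and 14 peaks in ctcf-/- replicate 1, against 15 each in WT 48 hpf replicate 1, whereas KN150460v1 and KN149968v1 hold 0 ctcf-/- peaks.

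In all, 20 scaffolds held more ctcf-/- than WT 48 hpf peaks. Of these, 16 had no WT 48 hpf peak, 16 had just 1 ctcf-/- peak, and 3 (KN150127v1, KN150160v1 and KN150430v1) had a ctcf-/- site. KN149861v1 had 5 and 1 peaks in ctcf-/- against 1 and 1 in WT at 48 hpf, but no peaks of the ctcf-/- replicates overlapped each other there. The scaffolds with a lone ctcf-/- peak and no WT 48 hpf peak were KN149702v1, KN149727v1, KN149776v1, KN149785v1, KN149815v1, KN149849v1, KN149877v1, KN149917v1, KN150022v1, KN150125v1, KN150470v1, KN150476v1, KN150524v1, KN150574v1, KN150688v1 and KN150703v1. A lone peak cannot be shared by the ctcf-/- replicates, so by this choice these scaffolds have no ctcf-/- site.

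The ctcf-/- sites on scaffolds were divided into 2 kinds by their local background. The local background is the number of fragments expected at a peak from the reads around it, in a window of 10 kb. It is given here as a multiple of the genome background of the library and called high from 20 times. No input control is named, so reads of the peak itself and of nearby peaks may count in it. All 25 sites on KN149692v1 (7 sites), KN149693v1 (8), KN150127v1 (4), KN150271v1 (3) and KN150411v1 (3) had a high local background in at least 1 ctcf-/- replicate, 24 of them in both. None of the 27 sites on the other 24 scaffolds had. The 2 kinds come from this cut, and in replicate 2 they nearly met, with up to 17.0 times in the lower and from 19.5 times in the higher. In replicate 1 these limits were 11.5 and 28.7 times. These 5 scaffolds were chosen after their ctcf-/- background had been seen, so their ctcf-/- values are a description. The median ctcf-/- background was 62.1 and 63.0 times the genome background on the 5 scaffolds, against 2.59 and 5.75 times on the others. In ctcf-/- replicate 2 the multiples are lower bounds, so sites given there at up to 17.0 times may lie above the cut.

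The 5 scaffolds took up 44 of 140 and 26 of 79 scaffold peaks in the ctcf-/- lists (31.4% and 32.9%). They took up 45 (7.49%) and 35 (5.38%) of the scaffold peaks in WT at 48 hpf, and 48 (3.29%) and 23 (4.41%) at 24 hpf. Without them the share of peaks on scaffolds was 3.59% and 3.15% in ctcf-/-, against 1.80% and 1.86% in WT at 48 hpf and 2.09% and 1.89% at 24 hpf. The difference between genotypes fell to 1.54 percentage points but kept its direction.

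The background of these scaffolds was also raised in the WT lists, at lower multiples. On KN149692v1 the median local background of the peaks was 76.5 and 72.0 times the genome background in ctcf-/-, 29.0 and 19.2 times in WT at 48 hpf, and 17.3 and 18.1 times at 24 hpf. On KN149693v1 it was 76.8 and 76.9 times in ctcf-/-, 28.6 and 16.8 times in WT at 48 hpf, and 34.6 and 33.5 times at 24 hpf. KN150271v1, where the listed peaks end at position 2235, had the highest medians of the 5 in each library, with 132 and 167 times in ctcf-/-, 46.8 and 35.7 times in WT at 48 hpf, and 48.7 and 36.8 times at 24 hpf. Its listed peaks span less than the 10 kb window and have 1 background value in each library. That value may hold the reads of these peaks. KN149861v1, which has no ctcf-/- site and so is not among the 5, also had a raised background in some lists, with medians of 191 and 64.7 times in ctcf-/-, 13.0 and 10.3 times in WT at 48 hpf, and 81.5 and 9.68 times at 24 hpf. By contrast, on KN150170v1, which lies outside the group of 5, the medians were 5.29 and 6.5 times in ctcf-/-, 5.54 and 6.88 times in WT at 48 hpf, and 5.91 and 6.93 times at 24 hpf.

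Peak heights on the 5 scaffolds overlapped between the genotypes. On KN149692v1 the fragments at the summit (the pileup, a whole number recovered for each peak and not scaled for depth) had medians of 52.0 and 36.0 in ctcf-/-, 40 and 27.0 in WT at 48 hpf, and 63.0 and 22.0 at 24 hpf. On KN150271v1 the medians were 156 and 85.0 fragments in ctcf-/-, 119.5 and 81.0 in WT at 48 hpf, and 246 (1 peak) and 60.5 at 24 hpf. The ctcf-/- libraries overlapped the WT libraries on both scaffolds. On KN150170v1 the medians were 13.5 and 20 fragments in ctcf-/-, against 43.0 and 41.5 in WT at 48 hpf and 34.0 and 18.0 at 24 hpf. There the ctcf-/- medians lay below those of WT at 48 hpf and overlapped those at 24 hpf.

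**Figure D3:**
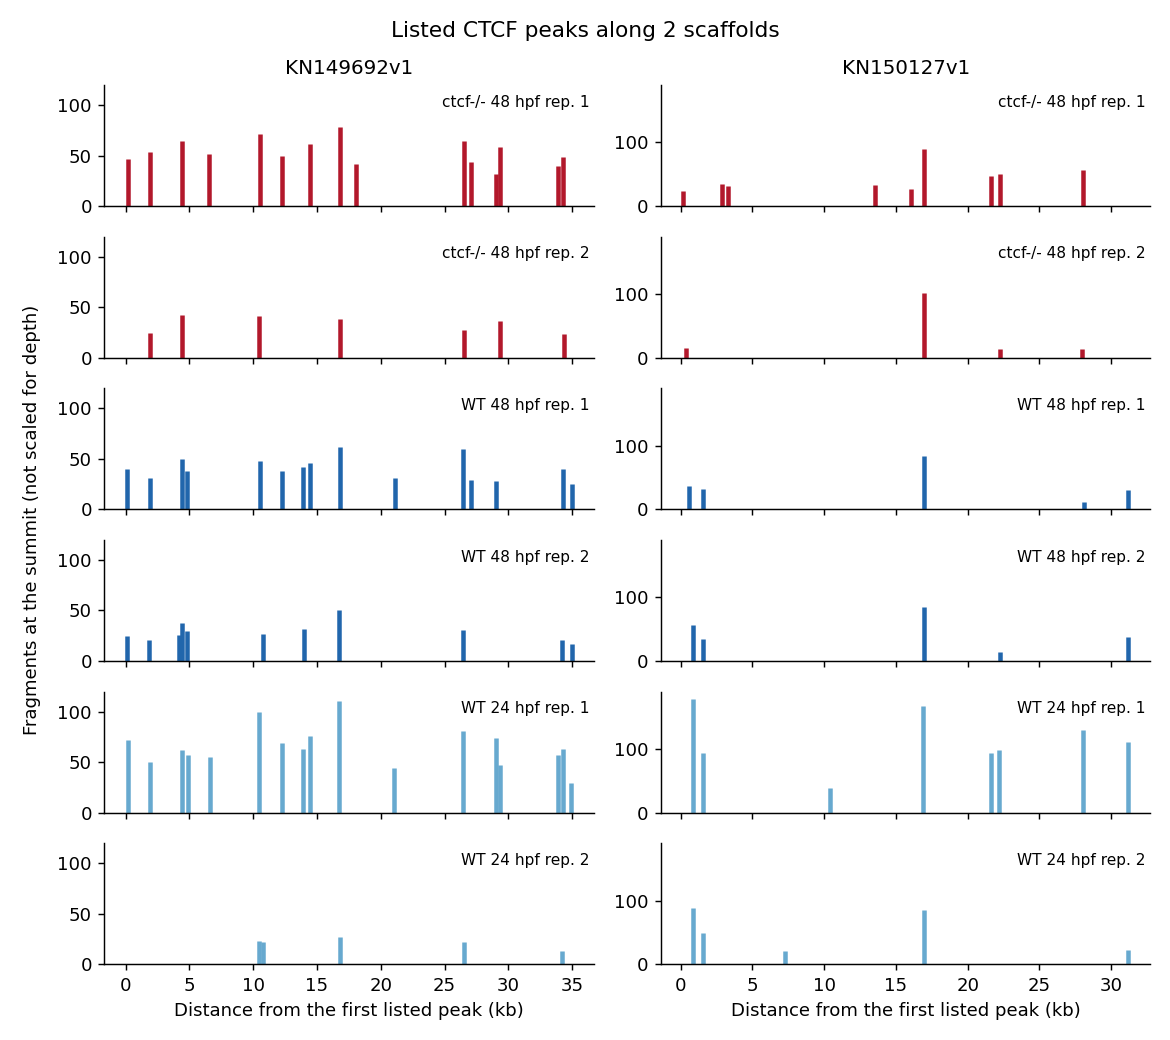
Listed peaks along KN149692v1 (left) and KN150127v1 (right) in the 6 libraries, by distance from the first listed peak in kb. Each line is a peak and its height the fragments at its summit, not scaled for depth. On KN149692v1 ctcf-/- replicate 1 has 15 peaks of 32 to 78 fragments and WT 48 hpf replicate 1 has 15 peaks of 25 to 62 fragments. On KN150127v1 the peak about 17 kb along stands at a mean of 95.5 fragments in ctcf-/- and 84 fragments in WT at 48 hpf.

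Of the 52 ctcf-/- sites, 42 overlapped a WT 48 hpf site, against 94.4% of all 844 ctcf-/- sites. The counts were 18 of 25 (72.0%) on the 5 scaffolds, 24 of 27 (88.9%) on the others and 755 of 792 (95.3%) on the chromosomes. A WT peak of either stage was listed at 788 of 792 ctcf-/- sites on the chromosomes (99.5%). On scaffolds this was so at 25 of 25 sites on the 5 and 26 of 27 (96.3%) on the others. Of the 10 scaffold sites without a WT 48 hpf site, 5 had a peak in at least 1 WT 48 hpf list, 4 had a WT 24 hpf peak only, and 1 had no WT peak. The last was on KN150160v1 (5485 to 5651), with 23 and 12 fragments at the summit, a fold enrichment of 9.42 and 7.54, and a local background of 11.5 and 12 times the genome background.

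Heights were also compared over all ctcf-/- sites with a peak in both WT 48 hpf lists. On the 5 scaffolds 18 sites qualified, with a median of 63.0 and 30.5 fragments at the summit in ctcf-/-, against 58.0 and 40.5 in WT embryos. At 1 of the 18 sites both ctcf-/- values lay below both WT values. On the other scaffolds 24 sites qualified, with a median of 12.5 and 13.0 fragments in ctcf-/-, against 74.0 and 70.0 in WT embryos. There both ctcf-/- values lay below both WT values at 23 of 24 sites (95.8%). The exception, on KN150160v1 (6045 to 6572), had 24 and 14 fragments in ctcf-/-, against 26 and 24 in WT at 48 hpf and 39 and 21 at 24 hpf. None of these heights is scaled for depth. The genome background was itself lower in ctcf-/-, at 8.5 and at most 4.00 tags per 10 kb, against 19.8 and 17.9 in WT at 48 hpf.

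The same split by local background was made for chromosome sites. At the 131 chromosome sites of high background in both ctcf-/- lists the medians were 90 and 48.0 fragments in ctcf-/-, against 75 and 48.0 in WT embryos at 48 hpf, and at 0 of them were both ctcf-/- values below both WT values. At the 616 chromosome sites of high background in neither ctcf-/- list the medians were 12 and 13.0 fragments in ctcf-/-, against 72.0 and 70.0 in WT embryos at 48 hpf, and both ctcf-/- values lay below both WT values at 594 (96.4%). Scaffold sites of each kind were thus close to chromosome sites of the same kind, and high-background sites were a larger share on scaffolds, 25 of 52 ctcf-/- sites against 164 of 792 (20.7%) on the chromosomes. These are descriptions, since the sites share their libraries. The split also uses the ctcf-/- background, which a listed peak has to exceed, so it sets a floor under the ctcf-/- pileup of the high-background sites on scaffolds and chromosomes, and the counts of sites below WT are not independent of the split. The ctcf-/- libraries were the shallower ones, and what part depth and local background had in the remaining peaks was not tested.

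**Figure D4:**
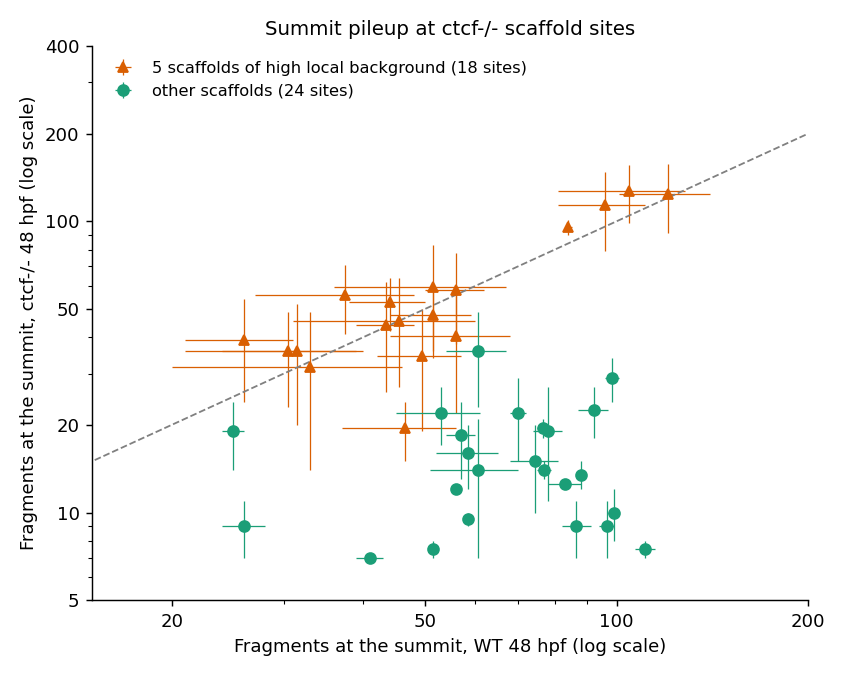
Fragments at the summit in ctcf-/- (vertical, log scale) and in WT at 48 hpf (horizontal, log scale) at the 42 ctcf-/- scaffold sites with a peak in both WT lists. Fragments are not scaled for depth, which was lower in ctcf-/-. Points are means of the 2 replicates, lines run between the replicates, and the dashed line marks equal values. The 18 sites on the 5 scaffolds of high local background (triangles) lie along the line, and 23 of the 24 sites on other scaffolds (circles) have both ctcf-/- values below both WT values.

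Among the 10 ctcf-/- scaffold sites of highest strength, 9 lay on scaffolds of low background. Strength ranks a site by fold enrichment among all peaks of its list, from 0 to 100, as a mean of both replicates. The strongest was on KN149926v1 (1896 to 2160), with 24 and 34 fragments at the summit in ctcf-/-, a mean of 98.5 over both libraries of WT at 48 hpf, and values of 171 and 35 in those of WT at 24 hpf. Its fold enrichment stood at the 98.2 and 98.4 percentile of the ctcf-/- lists, against 99.1 and 99.2 in WT at 48 hpf. KN150692v1 (80 to 361) had 49 and 23 fragments in ctcf-/-, against 67 and 54 in WT at 48 hpf and 45 and 35 at 24 hpf. At this site fold enrichment stood at the 99.9 and 94.5 percentile in ctcf-/-, against 99.6 and 98.9 in WT at 48 hpf.

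KN150127v1 (17910 to 18175) was the site of high background among the 10. It had a mean of 95.5 fragments over the libraries of ctcf-/- (90 in replicate 1), and 83 and 85 fragments in those of WT at 48 hpf. The ctcf-/- values, not scaled for depth, lay just above those of WT at 48 hpf, although the ctcf-/- libraries were shallower. Their genome background was 8.5 and at most 4.00 tags per 10 kb, against 19.8 and 17.9 in WT at 48 hpf, so near-equal counts do not stand for equal signal. The local background at the site was 52.0 and 55.0 times the genome background in ctcf-/-, against 9.82 and 10.8 times in WT at 48 hpf. Fold enrichment stood at the 92.1 and 99.8 percentile in ctcf-/-, against 95.8 and 97.0 in WT at 48 hpf.

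The next sites on scaffolds of low background had lower ctcf-/- values. KN150648v1 (206 to 563) had 17 and 27 fragments in ctcf-/-, against 45 and 61 in WT at 48 hpf and 95 and 42 at 24 hpf. KN150311v1 (13832 to 14204) had 27 and 18 in ctcf-/-, against 97 and 87 at 48 hpf and 118 and 40 at 24 hpf in WT. KN149748v1 (7026 to 7248) had 21 and 18 in ctcf-/-, against 78 and 75 at 48 hpf and 79 and 40 at 24 hpf in WT. In each the ctcf-/- values, not scaled for depth, lay below all 4 WT values. KN150158v1 (15815 to 16042) had 11 and 27 in ctcf-/-, against 82 and 74 at 48 hpf and 135 and 114 at 24 hpf in WT.

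Of the last 3 of the 10, KN150170v1 (10620 to 10875) had 12 and 20 fragments in ctcf-/-, against 52 and 65 in WT at 48 hpf and 62 and 45 at 24 hpf. KN150027v1 (92 to 355) had 13 and 15 in ctcf-/-, against 79 and 75 at 48 hpf and 175 and 53 at 24 hpf in WT. KN150232v1 (43814 to 44019) had 15 and 12 in ctcf-/-, against 87 and 89 at 48 hpf and 93 and 50 at 24 hpf in WT. Each of the 10 sites overlapped a WT site of both stages. Gene names were not assigned, since no annotation of these scaffolds in GRCz10 was used here.

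The other 42 ctcf-/- scaffold sites were of lower strength. The 24 on scaffolds of high background had 24 to 157 fragments at the summit in replicate 1 and 14 to 99 in replicate 2, with a fold enrichment of 3.46 to 12 and 3.62 to 9.02. The 18 on the remaining scaffolds had 7 to 24 and 7 to 29 fragments, with a fold enrichment of 6.31 to 15.1 and 6.69 to 15.3. The high-background sites had taller peaks and mostly lower enrichment, and their strength was a median of 20 against 58.9 for the others. These contrasts are not independent of the split, since the ctcf-/- background sets a floor under the pileup and enters fold enrichment.

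A WT 48 hpf site that overlapped a ctcf-/- site was counted as persisting. On scaffolds 43 of 466 sites persisted (9.23%, 95% Wilson interval 6.92 to 12.2), against 755 of 23491 (3.21%, 3.0 to 3.45) on chromosomes 1 to 25 and 3.33% of all WT 48 hpf sites. Single chromosomes lay between 2.21% (chromosome 1) and 4.53% (chromosome 14). On the 5 scaffolds 19 of 32 sites persisted (59.4%), and on the other scaffolds 24 of 434 (5.53%). No p-value is attached to these shares, since sites of a library are not replicates.

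Persisting scaffold sites were on median stronger than depleted ones and lay in higher WT background. Their median strength in the WT 48 hpf lists was at the 85.6 and 83.5 percentile, against 58.5 and 59.0 for depleted sites, which had no ctcf-/- site. The quartiles of the persisting sites in replicate 1 ran from 26.6 to 96.6, a wide range, against 75.9 to 96.9 for persisting sites on the chromosomes. Among the 47 strongest WT 48 hpf scaffold sites 18 persisted, and among the 47 weakest 9 persisted, all of them on the 5 scaffolds of high background. The median WT local background was 10.1 and 10.8 times the genome background at persisting scaffold sites, against 2.88 and 3.01 times at depleted ones. Chromosome sites differed in the same way, with a median strength of 92.2 and 92.9 at persisting sites against 60.1 and 62.7 at depleted ones, and a median background of 9.51 and 10 times against 3.14 and 3.34 times.

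The persisting share grew with the local background of the WT site on scaffolds and chromosomes alike. Since reads of the peak itself may count in that background, classes of background may in part sort sites by pileup, which was not tested. Under 2 times the genome background, 0 of 132 scaffold sites persisted, which allows a share of up to 2.83% by the Wilson interval, against 0.0975% of chromosome sites. From 2 to 5 times, 3 of 180 scaffold sites did (1.67%), against 0.648% on the chromosomes. From 5 to 10 times, 15 of 93 did (16.1%), against 6.18%. From 10 to 20 times, 14 of 44 did (31.8%, 20 to 46.6), against 21.6% (19.3 to 24.1). At 20 times and over, 11 of 17 did (64.7%, 41.3 to 82.7), against 50.6% (44.5 to 56.7). The scaffold share was above the chromosome share in each class but the lowest, and the intervals of the shares were apart only from 5 to 10 times (10 to 24.9 against 5.54 to 6.88). More scaffold than chromosome sites lay in the upper classes, 9.44% against 4.63% from 10 to 20 times and 3.65% against 1.09% at 20 times and over.

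**Figure D5:**
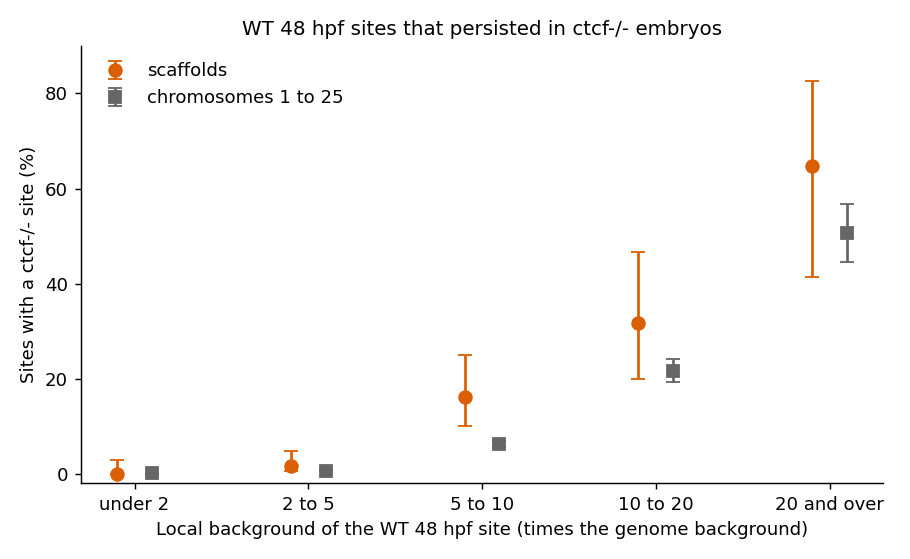
Share of WT 48 hpf sites that overlapped a ctcf-/- site, in percent, by the local background of the WT site in multiples of the genome background. Circles are scaffolds, squares chromosomes 1 to 25, with 95% Wilson intervals that cover counting error only. The scaffold share is 0% in the lowest class and 64.7% in the highest, against 0.0975% and 50.6% on the chromosomes.

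By strength the persisting share was highest at both ends. Among scaffold sites of a mean percentile up to 20, 10 of 53 persisted (18.9%), against 5.40% of chromosome sites, and from 80 to 100, 22 of 112 did (19.6%), against 9.18%. In between the scaffold shares were 3.19% (percentile 20 to 40), 4.55% (40 to 60) and 3.36% (60 to 80), against 0.598%, 0.466% and 1.21% on the chromosomes. The share was above that of the chromosomes in each of the 5 classes. Every persisting scaffold site of a mean percentile under 60 lay on the 5 scaffolds of high background. On the other scaffolds no site under 60 persisted, so in those classes the higher share rested on the 5 scaffolds alone.

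The 5 strongest WT 48 hpf scaffold sites lay on scaffolds outside the group of high background. KN150172v1 (39198 to 39538) had 11 and 7 fragments in ctcf-/-, against 99 and 94 in WT at 48 hpf and 174 and 41 at 24 hpf. Its fold enrichment stood at the 84.8 and 28.8 percentile of the ctcf-/- lists, and near the top of both WT 48 hpf lists. KN150094v1 (6498 to 6902) had 12 and 8 fragments in ctcf-/-, against a mean of 99 over the libraries of WT at 48 hpf. KN150311v1 (13758 to 14238) is among the strongest ctcf-/- sites given above.

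The other strong WT sites had no ctcf-/- site. KN150701v1 (384 to 743) had no listed peak in ctcf-/-, against 78 and 80 fragments in WT at 48 hpf and 127 and 50 at 24 hpf. KN149775v1 (1168 to 1513) had 8 fragments in ctcf-/- replicate 1 and no listed peak in replicate 2, against 64 and 71 in WT at 48 hpf and 62 and 43 at 24 hpf. Of these 5 sites 3 thus persisted, each at a much lower pileup than in WT. The pileups are not scaled for depth, and the ctcf-/- libraries were also shallower. Their genome background was 8.5 and at most 4.00 tags per 10 kb, against 19.8 and 17.9 in WT at 48 hpf. All 5 sites overlapped a WT 24 hpf site, as did 75.0% of all WT 48 hpf sites.

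Between the stages, fewer scaffold than chromosome sites were shared. Of the 466 WT 48 hpf scaffold sites 324 overlapped a WT 24 hpf site (69.5%, 95% Wilson interval 65.2 to 73.5), against 75.1% on chromosomes 1 to 25 and 75.0% of all WT 48 hpf sites. The lowest chromosome stood at 72.0% (chromosome 24), within the interval of the scaffolds, and 25 of 25 chromosomes lay above the scaffold share. That share was 17 of 32 sites (53.1%) on the 5 scaffolds of high background and 307 of 434 (70.7%) on the other scaffolds. In the other direction 317 of 416 WT 24 hpf scaffold sites overlapped a WT 48 hpf site (76.2%, 71.9 to 80), against 79.4% on the chromosomes and 79.3% of all. The gap was a few percentage points in both directions.

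Most scaffold sites of a single stage had a peak in at least 1 list of the other stage. This was so for 120 of 142 sites found at 48 hpf only (84.5%) and 63 of 99 found at 24 hpf only (63.6%), against 86.4% and 58.5% on the chromosomes. This left 22 of 466 scaffold sites at 48 hpf and 36 of 416 at 24 hpf with no peak of the other stage. On the chromosomes these were 798 of 23491 and 1887 of 22082 sites. Sites of a single stage were also weaker, on scaffolds as on the chromosomes. At 48 hpf their median percentile was 31.2 and 35.8, against 70.6 and 71.7 for shared sites (37.1 and 39.9 against 69.3 and 71.3 on the chromosomes). At 24 hpf it was 54.9 and 23.9, against 81.5 and 67.3 (52.8 and 28.2 against 78.5 and 63.7 on the chromosomes).

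The strongest sites at 48 hpf with no 24 hpf peak were of middling strength. KN150330v1 (11387 to 11613) had 18 and 16 fragments at the summit, with a fold enrichment of 13.6 and 13.0. KN150288v1 (7765 to 7972) had 11 and 15 fragments, and KN150170v1 (35224 to 35478) had 24 and 21. None of these had a ctcf-/- peak. At 24 hpf the strongest sites with no 48 hpf peak were on KN150631v1 (30223 to 30550; 40 and 14 fragments), KN150016v1 (3102 to 3416; 26 and 10) and KN150335v1 (4502 to 4724; 45 and 8). The lower values were those of replicate 2, the shallower of the 24 hpf libraries.

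Within each library, scaffold peaks were compared with chromosome peaks of the same list. The median percentile of fold enrichment was lower on scaffolds in 6 of 6 libraries, 40.8 against 50.4 and 38.1 against 50.8 in ctcf-/-, 47.4 against 50.1 and 44.7 against 50.1 in WT at 48 hpf, and 46.7 against 50.1 and 48.8 against 50 at 24 hpf. The mean difference was -5.80 percentile points (SD 4.46, n = 6 libraries; exact sign-flip permutation test, two-sided, p = 0.0312, 0.0625 after Benjamini-Hochberg adjustment over 4 measures). This p is the smallest that 6 libraries allow, and the adjusted value did not pass 0.05. Without the 5 scaffolds the percentile was lower on scaffolds in 3 of 6 libraries and higher in the other 3 (52.6 against 50.4 in ctcf-/- replicate 1, 51.2 against 50.1 in WT 48 hpf replicate 1 and 50.4 against 50 in WT 24 hpf replicate 2), and the mean difference was -1.55 percentile points (SD 3.58, n = 6; exact sign-flip permutation p = 0.406, adjusted p = 0.406). The 5 scaffolds were picked by their ctcf-/- local background, by which fold enrichment is divided. The comparison without them is therefore a description, and its p-value does not test scaffolds against chromosomes.

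The share of peaks with high local background was higher on scaffolds in 6 of 6 libraries. It was 35.0% against 10.6% and 32.9% against 10.9% in ctcf-/-, 5.32% against 1.05% and 1.54% against 0.850% in WT at 48 hpf, and 2.54% against 0.556% and 4.03% against 2.21% at 24 hpf. The mean difference was 9.21 percentage points (SD 11, n = 6; exact sign-flip permutation p = 0.0312, adjusted p = 0.0625). Without the 5 scaffolds the share on scaffolds was 5.21% and 1.89% in ctcf-/- and 0% and 0.162% in WT at 48 hpf, below the chromosomes in these 4 libraries, and 1.14% and 2.41% at 24 hpf. The mean difference was then -2.55 percentage points (SD 3.81, n = 6; exact sign-flip permutation p = 0.156, adjusted p = 0.208). Since the 5 scaffolds were picked by this measure in ctcf-/-, the drop in the ctcf-/- libraries follows from the choice.

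The other measures did not pass the test. The median percentile of −log10 q was higher on scaffolds in 2 of 6 libraries, with a mean difference of 1.63 percentile points (SD 6.74, n = 6; exact sign-flip permutation p = 0.969, adjusted p = 0.969). The median peak width differed by a mean of 0.583 bp (SD 8.65, n = 6; exact sign-flip permutation p = 0.969, adjusted p = 0.969).

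The share of scaffold peaks overlapped by the other replicate was counted beside that of chromosome peaks, with no test of the difference. In ctcf-/- 37.1% of replicate 1 and 67.1% of replicate 2 scaffold peaks were overlapped by the other replicate, against 30.7% and 49.3% of chromosome peaks. On the scaffolds other than the 5 of high background the ctcf-/- shares were 28.1% and 50.9%, close to the chromosomes, and on the 5 they were 56.8% and 100%. In WT at 48 hpf the shares were 77.9% and 72.0% on scaffolds, against 77.9% and 73.0% on the chromosomes. At 24 hpf they were 28.8% and 82.0% on scaffolds, below the 33.6% and 86.9% on the chromosomes. The uneven pair at 24 hpf goes with the uneven lengths of its lists. The Spearman correlation of fold enrichment between replicates, across sites and given as a description, was 0.710 in ctcf-/- (52 sites), 0.869 in WT at 48 hpf (466 sites) and 0.411 at 24 hpf (416 sites) on scaffolds, against 0.657, 0.814 and 0.457 on the chromosomes. Median site width was 268 bp in ctcf-/-, 319 bp in WT at 48 hpf and 409.5 bp at 24 hpf, against 259, 317 and 397 bp on the chromosomes.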

How the data were processed

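Narrow peak lists of 6 ChIPmentation libraries (3 groups of 2, grouped by the stage and genotype in the labels) were used. The authors aligned paired reads to GRCz10 (danRer10) with Bowtie2, removed pairs over 2 kb apart and called peaks with MACS2 in each library at an FDR of 0.001. No input control is named in the sources used here, and how reads with several matches were treated is not given in the sources used here. Peak positions are as deposited. The score column deposited by the authors was not used. Fold enrichment, a linear ratio as deposited by the authors, and the deposited −log10 p and −log10 q values belong to the summit of a peak and are not normalized between libraries. They were therefore compared between libraries only as ranks within a list (percentiles), and a fold enrichment printed for a site describes that library alone.

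Summit fragments (a whole number for each peak) and local background were solved from fold enrichment, in which MACS2 adds 1 to both, and from −log10 p, within 0.002 for 100% of peaks. For up to 2.34% of a list a second whole number fitted too, and the better fit was kept. The genome background of a list is its lowest local background. Read totals were not used, so depth is known only through it.

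Sites were regions with a peak of each replicate that overlapped by at least 1 bp, and bedtools 2.31.1 gave the same sites. Shares were compared with exact permutation tests over libraries and within-library differences with exact sign-flip tests, adjusted by Benjamini-Hochberg over 4 measures. Everything else is a count or a median. Regions named in the text were the 10 scaffolds with most peaks, scaffolds with more ctcf-/- than WT 48 hpf peaks, all ctcf-/- scaffold sites (the 10 strongest in full), the 5 strongest WT 48 hpf sites, the 3 strongest sites of a single stage, and ctcf-/- sites without a WT peak. The levels of KN150271v1 fall outside this rule and were picked once its values had been seen, as was the background of KN149861v1. Members and lists were chosen with earlier results of these data known. Alternatives covered the peak threshold, the overlap, list length, 30 kb clusters, covered bases, high-background peaks, single scaffolds and each library, and leaving out the 5 scaffolds (for the genotype comparison and the measures within libraries) or high-background WT sites was added after seeing the data. Motifs, sequences and genes were not analysed, since no GRCz10 genome was used here. The code was tested on simulated peaks. Python 3.11.15 with numpy 2.4.6, pandas 2.3.3, scipy 1.17.1 and matplotlib 3.10.9 was used.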

Additional observations from a re-analysis of the deposited data

Results flagged for a closer look

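The median local background of scaffold peaks minus that of chromosome peaks, in multiples of the genome background, had opposite signs in the genotypes. It was 0.941 and 2.00 in ctcf-/- replicates 1 and 2, against -0.101 and -0.223 in WT 48 hpf replicates 1 and 2. Every library of a genotype went the same way, and the difference between the genotypes was not tested. Without the 5 scaffolds of high background the ctcf-/- scaffold medians were 2.18 and 4.00, below the chromosome medians of 2.35 and 4.50. The 5 scaffolds were chosen by their ctcf-/- background, so that drop follows from the choice.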

How the results depend on the processing

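Of 114 alternative values, 86 kept their direction and stayed within the limits set for them. The higher share of peaks on scaffolds in ctcf-/- than in WT at 48 hpf kept its direction in 13 of 13 alternatives, with differences from 1.03 percentage points (peaks less than 30 kb apart counted once) to 3.93 (−log10 q of at least 10), and 2.68 to 3.20 when each library was left out. With the number in the labels as a replicate block it stayed 2.94 (exact p = 0.5, the smallest that 2 pairs allow), and -0.116 between the stages (p = 0.5). The labels do not say that a number marks a shared batch.

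Site counts moved with the definition. At a −log10 q of at least 10 there were 26 ctcf-/- and 270 WT 24 hpf scaffold sites, and with a peak in either replicate 166 in ctcf-/-, 781 in WT at 48 hpf and 1547 at 24 hpf. Without the 5 scaffolds 27 ctcf-/- sites were left. When each replicate was left out, the peaks of the other gave 79 to 140 sites in ctcf-/-, 601 to 651 in WT at 48 hpf and 521 to 1457 at 24 hpf, where the larger value is that of the deep WT 24 hpf replicate 1. The persisting share of scaffold sites was 13.3% with a peak in either replicate, 5.53% without the 5 scaffolds, and 6.91% to 14.8% when each library was left out. The share of WT 48 hpf scaffold sites with a 24 hpf site was 48.4% at a reciprocal overlap of 50%, 58.0% for summits within 100 bp, 83.1% with a peak in either replicate, and 57.5% to 91.0% when each library was left out. Leaving out the 5 scaffolds does not change the persisting share on the chromosomes, 3.21%. For the other settings no chromosome shares are given, so whether the contrast with the chromosomes held in them cannot be told.

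Within libraries, the lower mean percentile of fold enrichment kept its direction in 11 of 11 alternatives, with -6.72 to -4.42 percentile points when each library was left out, but shrank to -3.23 without high-background peaks (exact sign-flip permutation test, adjusted p = 0.250) and to -1.55 without the 5 scaffolds, where 3 of 6 libraries turned. Both of these settings select by local background, which enters fold enrichment, so they are descriptions. The higher share of high background kept its direction in 10 of 11, with 6.16 to 10.9 percentage points when each library was left out, and changed sign to -2.55 without the 5 scaffolds. Median width changed sign to -0.917 bp (−log10 q of at least 5), -0.667 bp (without KN149692v1) and -3.58 bp (without the 5 scaffolds), with -2.80 to 1.90 bp when each library was left out. The percentile of −log10 q changed sign to -0.274 without KN149692v1 and -3.00 without the 5 scaffolds, with -1.06 to 2.70 when each library was left out, and both took their negative sign without ctcf-/- replicate 1. The cause was not tested. The ctcf-/- libraries were the shallowest, and an absent peak there can be a site of low pileup that was not listed. What part depth had in the length of these lists was not tested.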
